A study of Homo sapiens with 4 samples.

Results

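Extracellular vesicles (EVs) are membrane particles that cells release with proteins and small RNAs inside them. The 4 small RNA libraries compared here were made from EVs of MDA-MB-231 cells, a widely used line derived from triple-negative breast cancer with mesenchymal character, labelled wild type. Cells were kept in DMEM with 10% fetal bovine serum and then held for 12 h in EV-free DMEM (231 EV) or in medium lacking glucose (231 -G EV), and EVs were collected by a final spin at 110000 g for 70 min. In each medium, replicate 1 was a pretreated library, for which the RNA had been deacylated, freed of 2′,3′-cyclic phosphate, phosphorylated at its 5′ end and demethylated at m1A and m3C before adapters were ligated, with inserts selected at 14 to 40 nt. Replicate 2 was an NEBNext small RNA library made from 1 µg of total RNA. The labels also name a TruSeq RNA kit for the RNA of replicate 2, and call the cells epithelial. The comparison therefore set 2 pretreated libraries against 2 NEBNext libraries, 1 of each medium on either side. Members were the miRNAs listed in both deposited tables, 383 with a number under 1200 or a let-7 name and 156 with a higher number, out of 1619 features listed in either. The preparation coincided with the replicate number and with the table in which the reads were counted, so these cannot be told apart, and whether the replicates came from separate cultures is not stated in the labels.

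miRNAs are cut from hairpin precursors, mostly by DROSHA and then DICER, and either strand, named 5p or 3p, can be kept in an Argonaute protein. Bases 2 to 8 of the mature strand, the seed, guide target choice, and miRNAs with 1 seed form a family. Small RNA libraries are made by joining adapters to both ends of the RNA, and how well an RNA is joined is known to depend on its end chemistry, its end sequence and its folding. A pretreatment of the kind used here is known mainly from work on tRNA fragments, whose ends and modified bases block an ordinary protocol.

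A selection of miRNAs that separated the preparations is shown first, since the results on families and arms refer back to them. It is not a ranking. MiR-451a, miR-6747-3p and miR-34c-5p had no sequence in the RefSeq table, and some miRNAs with larger fold changes than miR-16-5p and miR-21-5p appear only further below. Mature sequences are those of RefSeq (GRCh38.p14), written 5′ to 3′ with the seed in capitals. Levels are reads per 1000000 of the library's total count (CPM). Those with a far higher CPM in pretreated libraries were these.
miR-3131: uCGAGGACugguggaagggccuu
miR-216a-3p: uCACAGUGgucucugggauuau
miR-5699-3p: uCCUGUCUuuccuuguuggagc
miR-1224-5p: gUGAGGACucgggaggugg
miR-1246: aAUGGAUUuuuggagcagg
miR-624-5p: uAGUACCAguaccuuguguuca
miR-182-5p: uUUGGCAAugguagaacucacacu
Those with a far higher CPM in NEBNext libraries were these.
miR-125b-5p: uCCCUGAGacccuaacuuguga
miR-29a-3p: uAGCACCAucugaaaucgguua
miR-29c-3p: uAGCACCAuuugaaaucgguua
miR-138-5p: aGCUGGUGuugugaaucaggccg
miR-221-3p: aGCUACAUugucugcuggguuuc
miR-503-5p: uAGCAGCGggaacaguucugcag
miR-16-5p: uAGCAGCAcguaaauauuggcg
miR-21-5p: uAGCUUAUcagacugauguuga
The gene of miR-3131 lies in an intron of IHH on chromosome 2, where the mature strand covers 219058725 to 219058747 on the minus strand. That of miR-5699-3p lies in an intron of DIP2C on chromosome 10 (641699 to 641720, minus strand). That of miR-1224-5p, a miRNA known to be spliced from a short intron, lies in VWA5B2 on chromosome 3 (184241405 to 184241423, plus strand). MIR182 overlapped no other annotated gene of GENCODE v29, which uses the same genome build, and MIR21 lies in an intron of VMP1 on chromosome 17. MIR29A, MIR221 and MIR503 lie in introns of long noncoding RNAs.

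The pretreated libraries were shallow. They held 18397 reads in 231 EV and 15597 in 231 -G EV, against 224966 and 170894 in the NEBNext libraries. A single read was thus worth 54.4 and 64.1 CPM in pretreated libraries and 4.45 and 5.85 in NEBNext libraries, and a count of 0 allowed up to 3 reads, or 163.1, 192.3, 13.3 and 17.6 CPM. Of the miRNAs listed in both tables, 249 and 269 were detected in the pretreated libraries of 231 EV and 231 -G EV, and 390 and 361 in the NEBNext libraries. At an equal depth of 15597 reads the expected numbers were 236 and 269 against 231 and 224, so with 1 read as the requirement NEBNext libraries no longer had the larger number. With 2 reads required, the order depended on the medium, at 155 pretreated against 176 NEBNext in 231 EV and 185 against 171 in 231 -G EV. Because PCR reads carried no molecular identifiers, intervals on shares, limits and ratios cover counting error only.

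The leading miRNAs changed with the preparation, and 3 of the 10 most abundant (let-7f-5p, let-7i-5p and miR-21-5p) were common to both. In pretreated libraries miR-451a, a red blood cell miRNA that is cut by AGO2 in place of DICER, held 3577 reads in 231 EV and 6364 in 231 -G EV, against 295 and 68 in NEBNext libraries. Its level was 194434 and 408027 CPM against 1311 and 398, with no overlap. Its log2 fold change, pretreated over NEBNext, was 8.59 ± 1.15 (SE, n = 2 libraries each, edgeR adjusted p = 8.4e-11). MiR-182-5p had 9379 and 426 reads in pretreated libraries against 572 and 427, so that both pretreated values were higher in CPM but 1 of them, 231 EV, held most of the difference. Its log2 fold change was 5.55 ± 1.08, and 3.44 when that library was left out. Every fit that left out a library also left out the medium block, since 3 libraries leave no residual degree of freedom with it. Without the NEBNext library of 231 EV or of 231 -G EV, miR-182-5p was not called although its log2 fold change was 6.75 and 6.72 (edgeR adjusted p = 0.16 and 0.14), and neither was miR-451a at 9.56 and 7.84 (edgeR adjusted p = 0.071 and 0.11). MiR-21-5p, the most abundant miRNA of most cancer cell lines, had 356 and 430 reads against 68029 and 39805. It took 1.94% and 2.76% of the reads of pretreated libraries and 30.2% and 23.3% of those of NEBNext libraries (log2 fold change -3.52 ± 0.89, edgeR adjusted p = 0.0015). MiR-21-5p was called in 9 of 12 alternative fits, with log2 fold changes from -3.79 to -2.99.

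**Figure D1:**
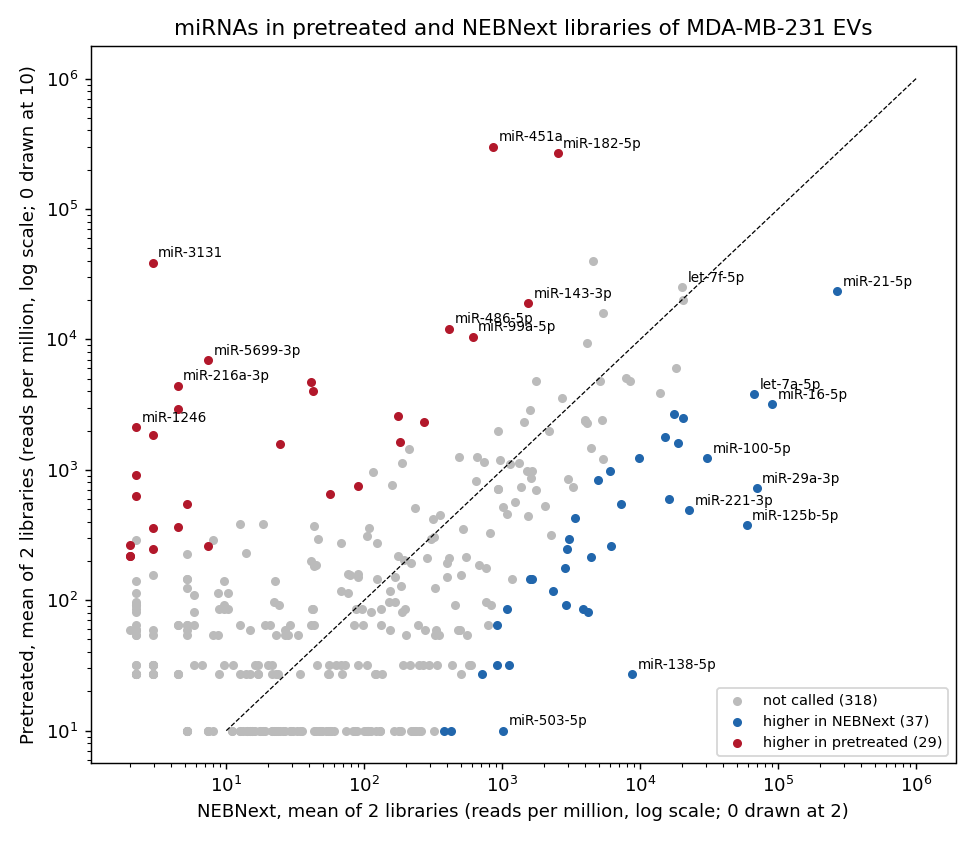
Mean CPM of 384 tested miRNAs in the 2 pretreated libraries (vertical axis) against the 2 NEBNext libraries (horizontal axis), both on log scales, with a dashed line at equality. The 29 red points were called higher in pretreated libraries and the 37 blue points higher in NEBNext libraries, and miR-451a, miR-182-5p and miR-3131 stand far above the line while miR-21-5p, miR-29a-3p and miR-125b-5p stand far below it.

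Across the 384 miRNAs above 0 in at least 2 libraries, with medium as a block, edgeR's quasi-likelihood test called 29 higher in pretreated libraries, which is 7.55% of those tested, and 37 higher in NEBNext libraries, which is 9.64%. Both pretreated libraries lay above both NEBNext libraries in CPM for 79 miRNAs (20.6%), and the reverse held for 177 (46.1%). Of the 384, 85 had no read in either pretreated library and 4 had none in either NEBNext library, so a lower value in a pretreated library was often a count of 0 at low depth. Since 2 libraries above 0 were required, these 85 count among the 177, and these 4 among the 79, by the filter alone. The median log2 fold change over all 384 was -0.75, and it was -0.16 over those with a read in all 4 libraries. The numbers of calls depended on the test and on the model. DESeq2 called 34 and 35, limma on log2(CPM + 1) called 0 and 0 (10.2% and 27.6% of miRNAs at an unadjusted p under 0.05, against 45 and 61 miRNAs by edgeR), and edgeR without the medium block called 58 and 62. From that unblocked fit, leaving out either NEBNext library left 13 or 14 in each direction, leaving out the pretreated library of 231 EV left 45 and 38, and leaving out that of 231 -G EV left 39 and 51.

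Among the miRNAs with the largest fold changes toward the pretreated libraries, NEBNext libraries held almost no reads of any but miR-451a and miR-182-5p. MiR-3131 had 542 and 746 reads in pretreated libraries and 0 and 1 in the far deeper NEBNext libraries. Summed over each preparation, its CPM was 14999-fold higher (95% exact interval 2687 to 592873). MiR-5699-3p had 46 and 176 reads against 2 and 1, a ratio of 862 (291 to 4210). MiR-216a-3p, of a hairpin known from the pancreas, had 119 and 37 against 2 and 0, a ratio of 908 (247 to 7566). In these 3 the pretreated libraries of both media were high and the NEBNext libraries of both media were near 0. MiR-1224-5p was less even, with 3 and 88 reads against 2 and 0 (ratio 529.8, interval 142.5 to 4441). Its log2 fold change of 7.67 became 4.80 without the pretreated library of 231 -G EV. MiR-1246, whose sequence is known to occur also in the U2 spliceosomal RNA, had 65 and 11 against 1 and 0 (ratio 885, interval 154.1 to 35410). MiR-624-5p, from an intron of STRN3, had 7 and 11 against 1 and 1, and miR-6747-3p had 10 and 11 against 1 and 0. MiR-34c-5p, of the p53-responsive miR-34 family, had 3 and 26 against 1 and 0. The 10 miRNAs of this group, miR-451a and miR-182-5p included, were chosen because they were called and did not overlap between preparations. Their edgeR adjusted p ran from 1.9e-15 to 0.00074, and their log2 fold changes stayed above 0 in all alternative fits run.

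Among the miRNAs with the largest fold changes toward NEBNext libraries, several held very many reads there. MiR-125b-5p, expressed widely in mesenchymal tissues, had 8 and 5 reads in pretreated libraries against 15058 and 8761, or 435 and 321 CPM against 66935 and 51266 (log2 fold change -7.29 ± 1.12). MiR-29a-3p, which represses collagen genes, had 9 and 15 against 10470 and 15913 (-6.58 ± 1.07), and miR-221-3p, which targets the cell cycle inhibitor CDKN1B, had 11 and 6 against 4346 and 4463 (-5.52 ± 1.06). In each of these both NEBNext libraries were high and both pretreated libraries were low, and values without overlap were a condition of their choice. MiR-138-5p had 1 and 0 against 1208 and 2077, a ratio of 282 (50.6 to 11146) in favour of NEBNext libraries. MiR-29c-3p had 3 and 0 against 709 and 893, a ratio of 45.9 (15.7 to 222.6), and miR-19b-3p, of the miR-17/92 cluster, had 2 and 1 against 571 and 885, a ratio of 41.7 (14.2 to 202). MiR-361-5p had 0 and 1 against a summed 445, a ratio of 38.2 (6.82 to 1513). MiR-503-5p, miR-301a-3p and miR-767-5p had no read in either pretreated library, so they entered the test through the NEBNext libraries alone. With 3 reads over both pretreated libraries as the limit, miR-503-5p (88 and 280 reads in NEBNext libraries) was at least 10.5-fold higher there. On the same basis miR-301a-3p (171 in all) was at least 4.89-fold and miR-767-5p (76 and 71) at least 4.21-fold higher. Of these 10, the fewest alternative fits called the last 2, since miR-301a-3p was called in 7 of 11 alternative fits and miR-767-5p in 6, neither of them by DESeq2, and miR-767-5p did not pass in the fit of seed families, where it stands alone (edgeR adjusted p = 0.076).

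**Figure D2:**
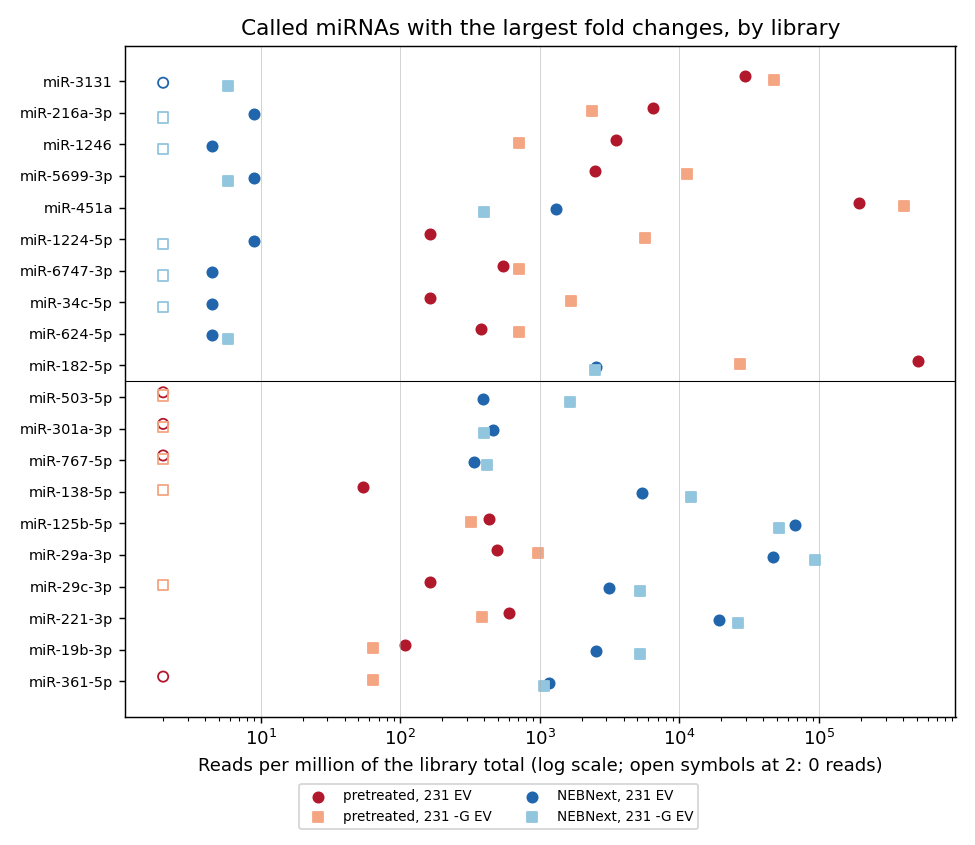
CPM (reads per 1000000 of the total, log axis) in each library for the 10 called miRNAs with the largest fold change toward pretreated libraries (above the line) and the 10 toward NEBNext libraries (below it). Red and orange are pretreated, dark and light blue are NEBNext, circles are 231 EV, squares are 231 -G EV, and open symbols mark 0 reads. Within each row all pretreated symbols lie on 1 side of all NEBNext symbols, which the choice of these miRNAs required.

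Seed families were compared next by adding the reads of all members with 1 seed, over the 492 members whose sequence was in the RefSeq table. These miRNAs held 74.3% and 49.8% of the reads of the pretreated libraries and 96.9% and 96.7% of those of NEBNext libraries, and most of the remaining pretreated reads were of miR-451a. Of 292 families tested, 13 (4.45%) were called higher in pretreated libraries and 12 (4.11%) higher in NEBNext libraries. With TMM scaling in place of library totals the split was 15 and 46, and without the medium block it was 40 and 35. From the unblocked fit, leaving out the NEBNext library of 231 EV or of 231 -G EV left 6 and 5 or 6 and 4. Families with more than 1 member made up 42 of the 292. Of these, 6 were called higher in NEBNext libraries and 2 in pretreated libraries.

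The 6 larger families that were higher in NEBNext libraries were miR-125, miR-29, miR-221 with miR-222, miR-15/16, miR-19 and miR-23. The miR-125 seed had 10 and 10 reads in pretreated libraries against 16240 and 9371 (log2 fold change -6.73 ± 1.35, edgeR adjusted p = 6.2e-05). The miR-29 seed had 18 and 18 against 12336 and 18038 (-6.16 ± 1.32, edgeR adjusted p = 0.00022). Here every member was low in the pretreated libraries and each of miR-29a-3p, miR-29b-3p and miR-29c-3p was called. MiR-221-3p and miR-222-3p together had 18 and 10 reads against 4745 and 4928. The miR-15/16 seed, whose members target BCL2 and cyclins, had 95 and 58 against 16871 and 20008, most of it miR-16-5p (70 and 40 against 15834 and 18955). The miR-19 seed had 5 and 3 against 764 and 1138, and the miR-23 seed had 17 and 25 against 3283 and 3569.

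The 2 larger families that were higher in pretreated libraries were the seed of miR-200b-3p, miR-200c-3p and miR-429, and that of miR-1-3p and miR-206. The former, which maintains epithelial identity by repressing ZEB1 and ZEB2, had 14 and 52 reads against 22 and 10 (log2 fold change 4.38 ± 1.27, edgeR adjusted p = 0.013). The latter, known from muscle, had 3 and 220 against 14 and 4, so its reads came from 231 -G EV. For miR-1-3p alone, at 163.1 and 7822 CPM against 62.2 and 23.4, the log2 fold change was 5.05 and it was 1.87 without the pretreated library of 231 -G EV. MiR-206 had 98 reads in that library and 0 in the other 3.

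Several families held both kinds of member. The let-7 family, which restrains growth by repressing LIN28 and RAS, took 5.67% and 8.70% of the reads of pretreated libraries and 16.1% and 11.9% of those of NEBNext libraries, and the whole seed was not called (log2 fold change -0.98 ± 1.11, edgeR adjusted p = 0.70). Within it, let-7a-5p had 66 and 62 reads against 18082 and 9218, or 6.32% and 4.57% of the let-7 reads against 49.9% and 45.5%. Let-7f-5p made up 37.4% and 33.7% against 15.9% and 12.4%, and let-7g-5p 23.5% and 21.5% against 3.09% and 4.79%. Let-7a-5p, let-7b-5p and let-7e-5p were called higher in NEBNext libraries and none of the other 6 was called. In CPM, let-7g-5p was higher in both pretreated libraries than in either NEBNext library (13317 and 18722 against 4979 and 5688), whereas let-7i-5p overlapped (12339 and 27890 against 21812 and 19181).

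Balances between such relatives do not depend on library totals, so pairs of miRNAs of the same length that differ at 1 base, with at least 10 reads together in every library, were listed. There were 10 pairs, and in 5 of them the 95% Wilson intervals of the share lay apart between preparations in both media. None of the 10 differences lay in the seed. The clearest pairs are these, with substitutions written from the first to the second miRNA and positions counted from 1 at the 5′ end.
miR-100-5p: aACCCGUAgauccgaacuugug
miR-99a-5p: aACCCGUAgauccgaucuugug
let-7a-5p: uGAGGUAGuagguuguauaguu
let-7f-5p: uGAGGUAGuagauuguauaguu
let-7c-5p: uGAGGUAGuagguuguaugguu
let-7b-5p: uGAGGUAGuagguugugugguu
miR-27a-3p: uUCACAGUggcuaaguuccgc
miR-27b-3p: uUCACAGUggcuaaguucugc
From miR-100-5p to miR-99a-5p the change is A16U. MiR-99a-5p and miR-100-5p had 52 and 11 reads in the pretreated library of 231 EV and 283 and 29 in that of 231 -G EV, so miR-99a-5p held 82.5% (71.4 to 90.0) and 90.7% (87.0 to 93.5), against 2.03% (1.74 to 2.35) and 1.89% (1.52 to 2.34) in NEBNext libraries. From let-7a-5p to let-7f-5p the change is G12A, and let-7f-5p held 85.5% (82.0 to 88.5) and 88.1% (85.0 to 90.6) against 24.2% (23.7 to 24.8) and 21.4% (20.7 to 22.2). From let-7a-5p to let-7c-5p it is A19G, and let-7c-5p held 43.1% in both pretreated libraries against 2.21% and 2.47%. From let-7b-5p to let-7c-5p it is G17A, and let-7c-5p held 50.5% and 56.0% against 7.97% and 6.49%. From miR-27a-3p to miR-27b-3p it is C19U, and miR-27b-3p held 80.9% and 56.9% against 34.6% and 25.9%. The other 5 pairs overlapped in their intervals in at least 1 medium. The intervals of miR-29a-3p and miR-29c-3p lay apart in 231 EV alone and those of miR-30a-5p and miR-30e-5p in 231 -G EV alone. Those of miR-103a-3p and miR-107 overlapped in both media, and both members were called higher in NEBNext libraries. How reads that match both members of such a pair were assigned is not given in the sources used here, and these values are uncertain to that extent.

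**Figure D3:**
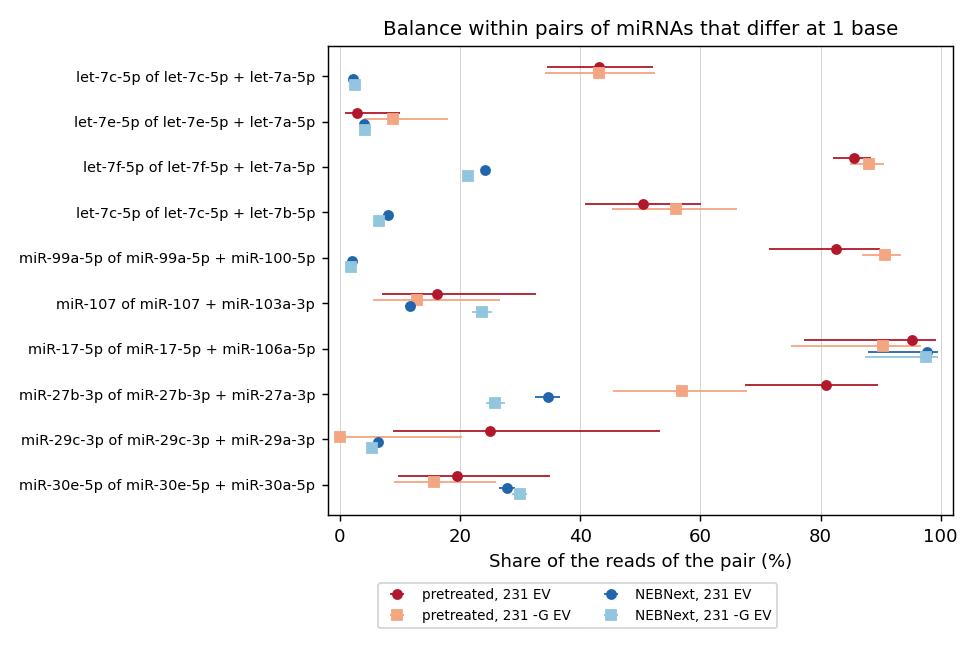
Share of the named miRNA in the reads of its pair (horizontal axis, %) for 10 pairs that differ at 1 base, by library, with 95% Wilson intervals. Red and orange are pretreated and blues are NEBNext; miR-99a-5p moves from about 2% of its pair in NEBNext libraries to 82.5% and 90.7% in pretreated libraries, and let-7c-5p, let-7f-5p and miR-27b-3p move the same way, while the other 5 pairs overlap in at least 1 medium.

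Positions in the genome followed part of this split, an observation made after the values were seen. MiR-99a-5p and let-7c-5p are encoded beside each other on chromosome 21 in introns of MIR99AHG, at 16539101 to 16539122 and 16539838 to 16539859 on the plus strand. MiR-100-5p and 1 copy of let-7a-5p are encoded on chromosome 11 in introns of MIR100HG, at 122152275 to 122152296 and 122146568 to 122146589 on the minus strand. The chromosome 21 members were at 2827 and 18145 (miR-99a-5p) and 2718 and 3013 (let-7c-5p) CPM in pretreated libraries, against 742 and 480, and 1814 and 1363, in NEBNext libraries. Both were higher in both pretreated libraries, and the chromosome 11 members were lower in both. MiR-125b-5p, which has a copy in each of these host transcripts, was low in pretreated libraries.

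The miR-17 family was split as well. MiR-93-5p had 19 and 34 reads against 3416 and 3824 and was called higher in NEBNext libraries (log2 fold change -3.61 ± 0.96). MiR-106b-5p, cut from a hairpin of the same primary transcript, had 16 and 10 against 14 and 20 and was called higher in pretreated libraries (3.12 ± 1.17). MiR-17-5p had 20 and 28 against 42 and 40, with levels of 1087 and 1795 CPM against 187 and 234 (2.74 ± 1.05, edgeR adjusted p = 0.055). The 3 hairpins of the miR-183 cluster also differed. Against the 9379 and 426 reads of miR-182-5p in pretreated libraries, miR-183-5p had 13 and 12 and miR-96-5p had 7 and 5. In NEBNext libraries miR-182-5p had 572 and 427 reads, miR-183-5p had 270 and 263, and miR-96-5p had 208 over both libraries. Among miR-10 members, miR-10b-5p rose (24 and 60 against 59 and 15, log2 fold change 3.85 ± 1.13) and miR-10a-5p (99 and 210 against 1022 and 634) had a log2 fold change of 1.05 ± 0.91, which did not pass.

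Other families ranged from several calls to none, beside 7.55% of all tested miRNAs called higher in pretreated libraries and 9.64% in NEBNext libraries. MiR-23, miR-24 and miR-27 took 0.36% and 0.76% of reads in pretreated libraries against 2.86% and 4.66%, and miR-23a-3p, miR-24-3p and miR-27a-3p were the 3 of 5 called higher in NEBNext libraries. The list of miR-130, miR-301 and miR-454 had 3 of 4 called that way, with miR-130a-3p at 1 and 2 reads against 265 and 796. The miR-30 list had 2 of 5 called (miR-30a-5p and miR-30e-5p), while miR-30d-5p overlapped at 2990 and 6604 CPM against 4956 and 5284. For miR-103 and miR-107 it was 2 of 2. None of 4 tested was called in the miR-25/32/92 list, where both NEBNext libraries were above both pretreated libraries for all 4, as for 46.1% of all tested miRNAs. The miR-320 list had no call either, and both pretreated libraries were above both NEBNext libraries for 4 of its 5 (median log2 fold change 2.93), as for 20.6% of all tested miRNAs, at low counts such as 5 and 5 reads against 5 and 12 for miR-320b. The miR-26, miR-146, miR-181, miR-148 with miR-152 and miR-18 lists had no call, and both NEBNext libraries were above both pretreated libraries for 2 of 2 in the miR-26 list. MiR-148a-3p had 125 and 1140 reads against 797 and 944, and its log2 fold change of 2.34 ± 0.95 did not pass (edgeR adjusted p = 0.074). It was called in 6 of 12 alternative fits, among them DESeq2, TMM scaling and totals without miR-182-5p, and its log2 fold change ranged from 0.58 without the pretreated library of 231 -G EV to 4.01 without that of 231 EV. The list of miR-191, miR-423 and miR-425 had 1 of 6 called, higher in NEBNext libraries, and the list of miR-192, miR-194 and miR-215 had 1 of 3, miR-215-5p at 54.4 and 9297 CPM against 35.6 and 46.8. Its log2 fold change of 4.96 fell to 0.40 without the pretreated library of 231 -G EV.

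**Figure D4:**
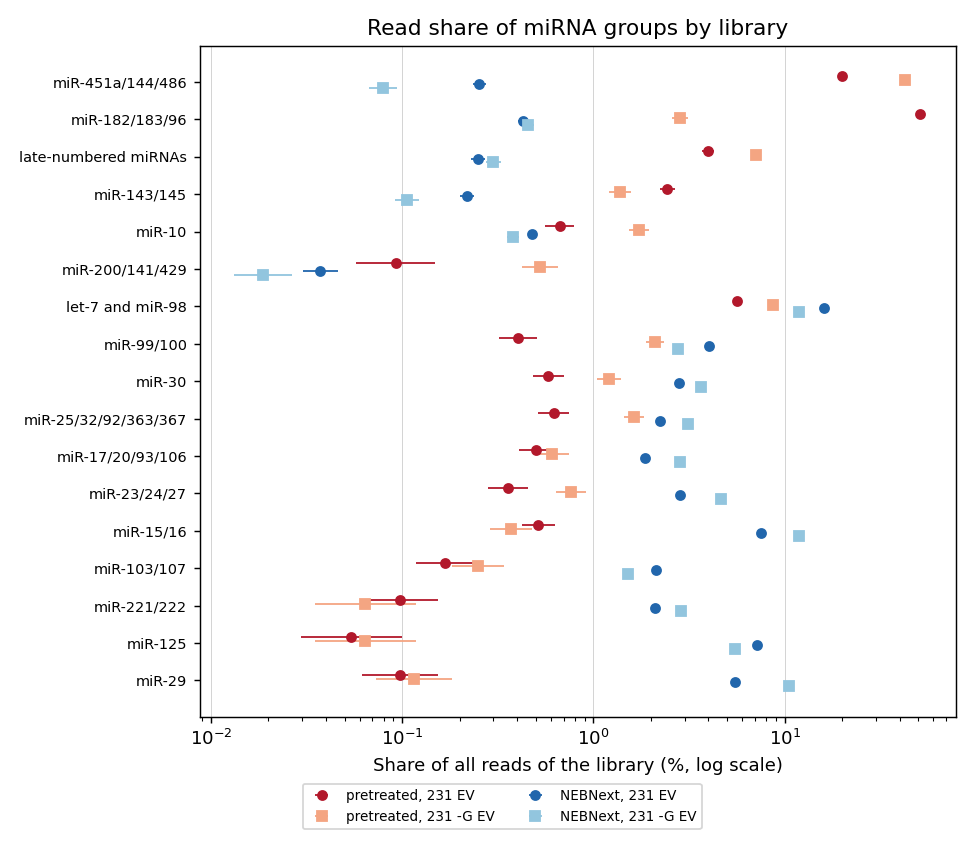
Share of all reads of each library (%, log axis) taken by 17 groups of miRNAs, with 95% Wilson intervals; red and orange are pretreated and blues are NEBNext. The group of miR-451a, miR-144 and miR-486 took 20.0% and 42.8% in pretreated libraries against 0.253% and 0.079% in NEBNext libraries, and the miR-29 group 0.098% and 0.115% against 5.48% and 10.6%.

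Arms were compared for 36 hairpins with at least 10 reads over both arms in every library, out of 112 with both arms listed. The test of arm by preparation shares the library between arms, so library totals do not enter it. The major arm was 5p in all 4 libraries for 21 hairpins and 3p for 11, and 7 of the 36 (19.4%) were called. The major arm switched with the preparation for 2 hairpins, miR-216a and miR-144. The 5p arm of miR-216a had 1 and 0 reads and its 3p arm 119 and 37 in pretreated libraries, against 12 and 10 on 5p and 2 and 0 on 3p in NEBNext libraries (edgeR adjusted p = 3.8e-05). The sequences of its 5p and 3p arms are given for this switch.
miR-216a-5p: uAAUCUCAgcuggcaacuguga
miR-216a-3p: uCACAGUGgucucugggauuau
MiR-144, the hairpin next to miR-451a in the genome, had 13 and 13 reads on its 3p arm and none on 5p in pretreated libraries, whereas in NEBNext libraries 5p had 80 and 19 of the reads, or 60.6% (52.1 to 68.5) and 55.9% (39.5 to 71.1). MiR-378a had no 5p read beside 13 and 40 on 3p, against 5p shares of 33.9% and 38.2%. All 3 moved toward 3p in pretreated libraries, and miR-30e did so with 5p shares of 70.0% and 61.1% against 93.9% and 97.1%. In the opposite direction, the 5p share of miR-106b was 76.2% (54.9 to 89.4) and 45.5% (26.9 to 65.3) against 5.15% (3.09 to 8.45) and 11.8% (7.79 to 17.6). That of miR-17 was 100% of 20 and 28 reads against 63.6% and 78.4%, and that of miR-10a was 100% and 99.5% against 95.3% and 92.3%. Of the 29 hairpins not called, the 5p shares overlapped between preparations for 14, such as miR-21, let-7a, let-7i, miR-25, miR-27a and miR-148a, and did not for 15. Among the latter, miR-126 had a 5p share of 8.33% (2.32 to 25.8) and 3.39% (0.935 to 11.5) against 30.4% (28.5 to 32.3) and 32.1% (29.04 to 35.2), which did not pass (edgeR adjusted p = 0.068). With at least 20 reads required, 20 hairpins were tested and none was called by edgeR, although 4 passed an unadjusted p under 0.05. Without the medium block 9 of 36 were called, and leaving out the pretreated library of 231 EV from that fit left the call of miR-216a alone.

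**Figure D5:**
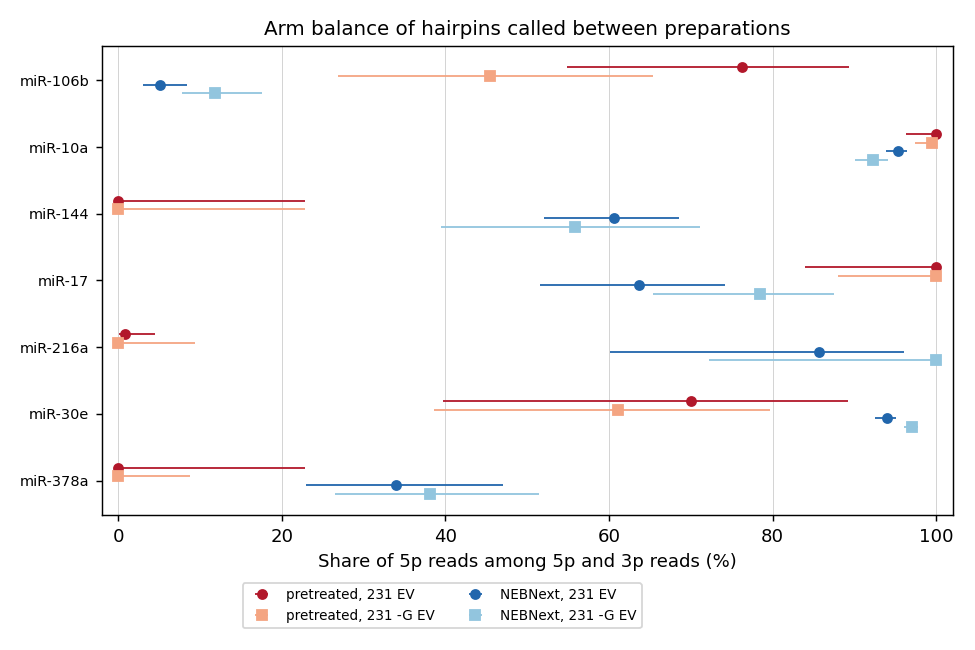
Share of 5p reads among the reads of both arms (horizontal axis, %) for the 7 hairpins called between preparations, by library, with 95% Wilson intervals. Pretreated libraries (red, orange) lie near 0% for miR-144, miR-216a and miR-378a where NEBNext libraries (blues) lie between 33.9% and 100%, and lie above them for miR-106b, miR-10a and miR-17.

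Classes of sequence were compared by their read shares, over the same members with a sequence. MiR-451a, with 3577 and 6364 reads in pretreated libraries, is not among these, so the shares describe the remaining reads and not the whole libraries. MiRNAs ending in A took 4.83% and 12.1% of the reads with a known sequence in pretreated libraries against 49.9% and 46.6% in NEBNext libraries. With miR-182-5p and miR-21-5p left out, the miRNAs with the most such reads in the pretreated library of 231 EV and in the NEBNext libraries respectively, these were 7.72% and 7.40% against 27.3% and 29.8%. MiRNAs ending in U took 58.2% and 60.8% against 33.6% and 25.2% on the same basis, and those ending in C 17.2% and 11.9% against 8.40% and 10.6%. Counted by miRNA, 3 of 70 tested that end in A were called higher in pretreated libraries and 11 in NEBNext libraries, against 7 and 7 of those that end in U and 24 and 34 of all 352 with a sequence. The median log2 fold changes were -1.47 for A, -1.56 for C, -1.08 for G and 0.18 for U, beside -0.82 for all, so the median of the C class was the lowest although its read share was higher in pretreated libraries. By base composition, miRNAs with at least 60% G and C took 15.4% and 13.7% against 1.72% and 1.53%, mostly miR-3131. Counted by miRNA, 2 of 52 of these were called higher in pretreated libraries and none in NEBNext libraries, with a median log2 fold change of -1.07. Those under 21 bases took 2.66% and 1.80% against 0.066% and 0.070%, with 2 of 19 called higher in pretreated libraries. These were miR-1246 and miR-1224-5p, which held most of the pretreated reads of that class.

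miRNAs with a number of at least 1200, which were mostly added to miRBase from deep sequencing and tend to be scarce, made up 156 of the members (28.9%). They took 3.97% (3.70 to 4.26) and 7.12% (6.73 to 7.54) of the reads of pretreated libraries against 0.249% (0.229 to 0.270) and 0.300% (0.275 to 0.327). MiR-3131 alone made up 2.95% and 4.78% of pretreated reads, and without it the class took 1.02% and 2.34% against 0.249% and 0.300%. Of 63 tested, 9 were called higher in pretreated libraries and none in NEBNext libraries by edgeR, beside 29 and 37 of all 384. Of the 9, miR-3614-3p (5 and 4 reads), miR-3916 and miR-4699-5p (1 and 6 reads each) had none in NEBNext libraries, so they entered the test through the pretreated libraries alone. Only 1 of the 63 had a read in all 4 libraries, and 23 had none in either library of a preparation. For these 23 the filter of 2 libraries above 0 fixed the order, since the other preparation then held a read in both of its libraries. Both NEBNext libraries were above both pretreated libraries for 22 of the 63, beside 46.1% of all tested miRNAs, and the reverse held for 15, beside 20.6%. Among the former was miR-1307-5p with 0 and 2 reads against 67 and 219. Among entries known to share sequence with other small RNAs, miR-1246 was called, whereas miR-4454 had 2 and 0 reads against 7 and 6 and miR-1290 had 2 and 0 against 1 and 0. Of the mirtrons, miR-1224-5p was called and miR-877-5p, with 1 and 2 against 3 and 6 (ratio 3.88, interval 0.676 to 15.6), was not. In the imprinted 14q32 cluster, 1 of 25 tested was called, miR-134-5p with 2 and 6 reads against 0 and 1. The best covered member, miR-127-3p, had 19 and 19 against 58 and 20 (ratio 5.67, interval 3.74 to 8.46) and was not called. The chromosome 19 cluster had no call in 2 tested. In the list of miR-34 and miR-449 the 2 calls of 4 were miR-34c-5p and miR-449c-5p. The latter had 58 reads in the pretreated library of 231 -G EV, 1 in the NEBNext library of 231 -G EV and none elsewhere, and its log2 fold change of 8.55 became -1.94 without the former. In the miR-378 list miR-378a-3p was called, with 13 and 40 reads against 37 and 34.

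Markers of cell types were read as lists, since preparation and sample cannot be told apart. The list for mesenchymal breast cancer lines (miR-21-5p, miR-29a-3p, miR-31-5p, miR-100-5p, miR-221-3p and miR-222-3p) took 2.16% and 3.11% of reads in pretreated libraries against 40.6% and 38.0% in NEBNext libraries, and 4 of 6 were called higher there, beside 9.64% of all tested miRNAs. MiR-31-5p, which is known to be low in MDA-MB-231 and so is a poor marker of it, had few reads in every library, 4 and 1 against 3 and 1, which in CPM was higher in both pretreated libraries (ratio 14.6, interval 3.13 to 73.4), opposite to the other members, and it was not called. Epithelial miRNAs took 0.114% and 0.660% against 0.088% and 0.022%, and miR-200b-3p (9 and 42 reads against 7 and 3) and miR-203a-3p (4 and 8 against 2 and 0) were the 2 of 8 called, both higher in pretreated libraries, beside 7.55% of all tested. MiR-205-5p, also of this list, had 0 and 1 reads against 109 and 3 (ratio 0.104, interval 0.0026 to 0.591). MiR-141-3p had 2 and 1 against 26 and 10 (ratio 0.970, interval 0.191 to 3.07), and neither passed. Red blood cell miRNAs were split. MiR-451a and miR-486-5p (5218 and 18914 CPM against 635.7 and 193.1, log2 fold change 4.80 ± 1.10) were higher in pretreated libraries, and miR-16-5p was higher in NEBNext libraries, while miR-144-5p had no read in either pretreated library and 80 and 19 in NEBNext libraries. With 1 library left out, the log2 fold change of miR-486-5p ranged from 3.64 to 5.95. Of 4 white blood cell miRNAs, 2 were called higher in NEBNext libraries, miR-142-3p with 3 and 3 reads against 858 and 324 and miR-223-3p with 3 and 2 against 502 and 158. MiR-142-5p and miR-150-5p overlapped between preparations, and the list was at 0.043% and 0.173% against 0.820% and 0.393%. MiR-143-3p, of smooth muscle and fibroblasts, had 447 and 210 reads against 469 and 172 (log2 fold change 3.64 ± 0.94) and was called, as in 9 of 12 alternative fits. Its cluster partner miR-145-5p had 1 and 4 against 22 and 10 (ratio, pretreated over NEBNext, 1.82, interval 0.553 to 4.70) and did not pass. The liver list (miR-122-5p, miR-192-5p) had no call, the neural list 1 of 3 (miR-9-5p, 36 and 42 reads against 70 and 39) and the muscle list 1 of 2 tested. What part these marker lists have in the other differences between preparations was not tested.

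The tables also differed in what they listed. The replicate 1 table held 776 miRNAs that the replicate 2 table did not list. Of these, 602 (77.6%) had a number of at least 1200, and they took 4.75% and 5.27% of the reads of the pretreated libraries. The replicate 2 table held 271 named miRNAs of its own, with 0.207% and 0.252% of reads, and 33 predicted ones, with 0.573% and 0.439%. With 0 reads entered for miRNAs absent from the other table, edgeR called 76 higher in pretreated libraries and 40 higher in NEBNext libraries among 558 tested. A miRNA that only 1 table listed could be called only toward that table, so the direction of such calls was fixed by the entered 0.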

How the data were processed

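Small RNA reads of EVs were counted by the authors per miRNA in separate tables for each replicate, and the deposited counts were used as they stand. The deposited CPM of replicate 1 and TPM of replicate 2 were both the authors' counts per column total, scaled alike with no length term, and served only to check the counts. The submitters' processing notes name hg38, FastQC, cutadapt, Bowtie, Bowtie2, StringTie and edgeR without versions, and the study's methods describe only the NEBNext protocol. Which of the tools made which table is not given in the sources used here, so the preparation also stands for the counting.

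Counts of miRNAs that both tables list were tested, where 2 libraries or more held a read, with edgeR 4.0.16 (quasi-likelihood, two-sided, deposited totals, medium as a block) in R 4.3.3. Calls required a Benjamini-Hochberg adjusted p below 0.05 and a log2 fold change beyond 1 either way. Families were sums over bases 2 to 8 of RefSeq sequences, and arms were tested with a term for each library. DESeq2 1.42.0, limma 3.58.1 (pseudocount 1), other totals, filters and left-out libraries were alternatives. List shares carry 95% Wilson intervals and no test. Python 3.11.15 with SciPy 1.17.1 and matplotlib 3.10.9 gave intervals and plots. On simulated counts the miRNA test recovered 25.9% of 8-fold changes (50.7% among better covered miRNAs) and the arm test 55.6% of 16-fold changes. A missing call therefore does not mean that there was no difference.

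Named miRNAs were the 10 called with the largest change in each direction (not overlapping, at least 20 reads), the 10 most abundant of each preparation, up to 4 leading members of each list, the leading and called families and hairpins, and the 5 with most reads listed in 1 table. Others were chosen after their values were seen. The members and lists were chosen with earlier results of these data known. With 2 libraries per preparation, p-values measure only the spread between these libraries, which may be technical.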

Additional observations from a re-analysis of the deposited data

Results flagged for a closer look

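For let-7f-5p and let-7i-5p the direction of the difference between preparations depended on the medium. The pretreated level over the NEBNext level of let-7f-5p was 0.825 (95% exact counting interval 0.743 to 0.914) in 231 EV and 1.99 (1.80 to 2.20) in 231 -G EV. That of let-7i-5p was 0.566 (0.493 to 0.646) in 231 EV and 1.45 (1.31 to 1.61) in 231 -G EV. With 1 library for each medium and preparation, the difference between media was not tested.

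Reads were also present for miRNAs that only 1 table listed and that enter no comparison, and there was no control library to set them against. In the replicate 1 table the most abundant were miR-5006-5p with 174 reads over both media, miR-4516 with 88, miR-4491 with 87, miR-7704 with 70 and miR-3680-5p with 50. Of the reads of miR-5006-5p, 172 came from 231 -G EV. In the replicate 2 table they were miR-12136 with 100 reads, miR-497-5p with 55, miR-421 with 53, miR-135a-5p with 41 and miR-542-5p with 28. Each total lies above the 3 reads that a count of 0 allows.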

How the results depend on the processing

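No paired analysis was possible because the replicate number is the preparation itself, where pairing by that number is meant; the medium, which pairs the preparations, was the block of the fits unless stated. Of the 29 and 37 miRNAs called higher in pretreated and NEBNext libraries, TMM factors gave 33 and 56, totals without miR-182-5p 42 and 41, no medium block 58 and 62, and limma 0 and 0 (10.2% and 27.6% of miRNAs at an unadjusted p under 0.05). Counting every miRNA of either table gave 76 and 40, but the 0 entered for miRNAs that only 1 table listed fixed the direction of their calls. Leaving out 1 library, fitted without the block and with the lone library assumed to vary like the others, gave 13 to 45 higher in pretreated and 13 to 51 higher in NEBNext libraries, all under the 58 and 62 of the unblocked fit of 4 libraries. The lowest came without either NEBNext library. Of 13 and 12 seed families, TMM gave 15 and 46, totals without miR-182-5p 30 and 25, a read in all 4 libraries 21 and 18, and no block 40 and 35. With 1 library left out, also unblocked, the families ranged from 6 to 28 and from 4 to 31. Of 7 hairpins, 0 of 20 were called with at least 20 reads, 9 without the block, and from there 1 to 8 with 1 library left out, the 1 without the pretreated library of 231 EV and 3 without that of 231 -G EV. Requiring 2 reads, the pretreated 231 EV library had 155 miRNAs detected at equal depth in place of 236, against 176 in the NEBNext library, which turns the order in 231 EV. The log2 fold change of let-7f-5p (0.36, not called) ranged with 1 library left out from -0.025 (without the NEBNext library of 231 -G EV) to 0.78, and was 0.89 with totals without miR-182-5p. That of let-7i-5p (-0.14, not called) became 0.39 with totals without miR-182-5p and 0.15 by DESeq2, and ranged from -0.73 to 0.44 with 1 library left out. That of miR-449c-5p, which was called at 8.55, became -1.94 without the pretreated library of 231 -G EV. The cause of these changes was not tested. The median over all tested miRNAs was -0.75, and -0.93 with TMM, -0.27 without miR-182-5p and 0.08 by DESeq2. Relative to it, the median of the let-7 list was 0.34 and -0.20 by DESeq2, and that of the list of miR-182, miR-183 and miR-96 was 0.18 and -0.36. Depth limits the pretreated libraries, where 1 read was worth 54.4 or 64.1 CPM.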
